A study of Mus musculus with 12 samples.

Results

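The 10 genes described here make up the interleukin 2 (IL-2) loop of the T cell: the cytokine gene Il2, the receptor subunit genes Il2ra, Il2rb and Il2rg, the kinase genes Jak1 and Jak3, the transcription factor genes Stat5a and Stat5b, and the feedback inhibitor genes Cish and Socs1. They were taken by symbol from a deposited table of 32699 gene symbols. All 10 were found, and all 10 passed the low-count filter that left 13196 genes for testing. Mouse naive CD4+ T cells, the helper lineage, were stimulated in culture through CD3 and CD28. They either lacked Keap1 (Keap1 knockout, KKO) or were wild type (WT), and RNA was sequenced after 48 h or 24 h. The groups were KKO at 48 h, KKO at 24 h, WT at 48 h and WT at 24 h, with 3 libraries each and 12 in all. All 4 groups received the same stimulation, and no unstimulated group was compared. The labels do not say which part of Keap1 was deleted, in which cells, or by what driver. Whether each library is a separate mouse or culture is also not labelled, so p-values measure the spread between these libraries, part of which may be technical.

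A stimulated T cell makes IL-2 and responds to it. The cytokine is bound by an alpha chain (CD25, from Il2ra), a beta chain (from Il2rb) and the common gamma chain (from Il2rg), which other cytokine receptors share. JAK1 and JAK3 sit on the beta and gamma chains and phosphorylate STAT5, which raises Il2ra, Cish and Socs1 and lowers Il2, while CISH and SOCS1 damp the receptor.

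Totals per library ran from 17.8 to 32.6 M (mega) expected counts. Levels are given as CPM (counts per M of library total, with library sizes scaled by TMM). Keap1, the targeted gene, stood at 20.2 to 22.5 CPM in KKO against 122 to 132 CPM in WT at 48 h, and at 15.7 to 17.5 CPM in KKO against 106 to 109 CPM in WT at 24 h. Xist and Y-linked transcripts were both present in 2 KKO libraries, replicate 1 of 24 h and replicate 3 of 48 h, while the other 10 libraries held mainly the one or the other. Each of the 4 groups had at least 1 library of either kind, so a group's libraries did not all come from the same mouse. KKO replicate 2 at 48 h, with Xist only, also stood apart: its Spearman's rho with replicates 1 and 3 was 0.989 and 0.9915 across genes, and that between replicates 1 and 3 was 0.996. Calls of members that change without these libraries are given with both values. The 8 listed CD4 T cell markers summed to 2320 ± 130.2 CPM in KKO and 2296 ± 65.0 CPM in WT at 48 h, and to 2552 ± 28.3 CPM in KKO and 2766 ± 58.5 CPM in WT at 24 h (SD, n = 3), with Cd4 at 474 CPM or more as a group mean.

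Markers of other cells were low but not equal between the groups. The 10 B cell genes summed to 53.1 to 79.7 CPM in KKO against 26.1 to 36.4 CPM in WT at 48 h, and to 50.4 to 70.0 CPM in KKO against 25.2 to 31.8 CPM in WT at 24 h. Of the 9 tested, 8 rose at 48 h and 4 at 24 h in edgeR. At 24 h DESeq2 called 8 of them (483 of all 13196 genes) and limma-voom 7 (286 of all). Over all tested genes 12.4% rose and 11.9% fell at 48 h, and 1.89% rose and 0.432% fell at 24 h. Those shares are the background for each cell-type list in the fit of all 12 libraries, which called 3209 of 13196 genes at 48 h and 307 at 24 h. Without the 2 libraries of mixed sex-linked transcripts 1386 of 13391 genes were called at 48 h and 107 at 24 h. Without KKO replicate 2 of 48 h 5362 of 13525 were called at 48 h and 505 at 24 h. Without the 2 libraries of mixed sex-linked transcripts 6 B cell genes rose at 48 h and 0 at 24 h, while without KKO replicate 2 of 48 h 6 rose at 48 h and 7 at 24 h. The 5 regulatory T cell genes, a class of cell that carries much CD25, summed to 647 to 945 CPM in KKO against 490 to 675 CPM in WT at 48 h, and to 207 to 226 CPM in KKO against 199 to 229 CPM in WT at 24 h. Most of that came from Ctla4 and Tnfrsf18, which activated helper cells also express. Foxp3, the defining factor, averaged 3.81 CPM in KKO and 2.79 CPM in WT at 48 h, and 14.1 CPM in KKO and 10.3 CPM in WT at 24 h. At 24 h its KKO libraries were all above its WT libraries (log2 fold change 0.45, edgeR adjusted p = 0.346). So were those of Ikzf2 (0.55, adjusted p = 0.0958), while those of Ctla4 were all below (-0.40, adjusted p = 0.726). At 48 h 4 of the 5 regulatory genes rose, but 1 of 5 without the mixed libraries. All 5 rose without KKO replicate 2 of 48 h. At 24 h edgeR and limma-voom called 0 of the 5, DESeq2 called 1, and 2 had an unadjusted p under 0.05. CD8 T cell genes (4) averaged 39.2 CPM in KKO and 71.5 CPM in WT at 48 h, and 84.3 CPM in KKO and 69.6 CPM in WT at 24 h, mainly from Eomes and Crtam, with group means of at most 3.11 CPM for Cd8a and 10.8 CPM for Cd8b1. At 48 h Eomes (log2 fold change -1.64) and Crtam (-0.60) fell, whereas the lineage genes Cd8a (0.79, edgeR adjusted p = 0.0473) and Cd8b1 (0.47, adjusted p = 0.0161) rose. Without the mixed libraries 2 of the 4 fell and 0 rose. Natural killer genes (5) averaged 35.5 CPM in KKO and 38.2 CPM in WT at 48 h, and 11.6 CPM in KKO and 10.03 CPM in WT at 24 h, mostly Nkg7. Genes of γδ T and innate lymphoid cells (5 in the table) averaged 14.9 CPM in KKO and 5.63 CPM in WT at 48 h, and 15.4 CPM in KKO and 12.2 CPM in WT at 24 h. The 10 macrophage and dendritic cell genes averaged 8.54 CPM in KKO and 3.79 CPM in WT at 48 h, and 4.403 CPM in KKO and 3.58 CPM in WT at 24 h, with Fcgr1 at 0 in all 12 libraries. What part these cells had in the results below was not tested.

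The comparison of KKO with WT asks what loss of Keap1 does to the loop during activation. At 48 h Il2 was lower in KKO while Il2ra, Il2rb, Jak3, Stat5a, Stat5b and Socs1 were higher and Il2rg was lower. At 24 h Cish, Socs1, Stat5a and Il2rb were called higher in KKO and 0 members lower in edgeR. DESeq2 called 8 members at 24 h: 6 higher, among them Il2ra and Stat5b, and 2 lower, Il2rg and Jak1. With limma-voom 3 members were called at 24 h, and Il2rb was not (adjusted p = 0.0547). Over all 13196 genes at 24 h, DESeq2 called 483, limma-voom 286 and edgeR 307. Calls rest on edgeR's quasi-likelihood test, with p adjusted by Benjamini-Hochberg over all 13196 genes and a threshold of 0.05. At 48 h 8 of the 10 members were called, 6 higher and 2 lower, where 24.3% of all tested genes were called (12.4% higher, 11.9% lower). At 24 h 4 of the 10 were called, all 4 of them higher, where 2.33% of all tested genes were called (1.89% higher, 0.432% lower). Leaving out the 2 libraries of mixed sex-linked transcripts left 5 members called at 48 h and 2 at 24 h. Over all genes that fit called 1386 of 13391 at 48 h and 107 at 24 h, against 3209 and 307 of 13196 with all libraries. With 1 library of 48 h left out, 4 members were called at that time without KKO replicate 1 (1405 of 13448 over all genes). The number was 5 without KKO replicate 3 (1659 of 13446), WT replicate 1 (1719 of 13526) or WT replicate 2 (1697 of 13530). At 24 h 2 were called without that time's KKO replicate 3 (132 of all genes), WT replicate 2 (138) or WT replicate 3 (152). Without KKO replicate 2 of 48 h 7 were called at 24 h (505 of 13525). The median log2 fold change over the 10 members was 0.23 at 48 h and 0.26 at 24 h, beside a median of -0.0042 and -0.0040 over all genes tested. KKO and WT libraries did not overlap for 9 of 10 members at 48 h, where 33.2% of all genes did not overlap, and for 9 of 10 at 24 h, where 19.4% did not. Set against each other within 1 reading of the sex-linked transcripts (Xist only, 1 KKO against 2 WT libraries, or Y-linked only, 1 against 1, at each time), the log2 ratio of KKO to WT kept the direction of the whole for each member. At 48 h it was 0.52 with Xist only and 0.73 with Y-linked only for Il2ra, 0.36 and 0.44 for Il2rb, 0.09 and 0.45 for Jak3, and 0.38 and 0.57 for Socs1. At 24 h it was 0.51 and 0.75 for Cish, 0.38 and 0.60 for Socs1, 0.28 and 0.46 for Stat5a, and 0.19 and 0.38 for Il2rb. These single-library ratios have no test. In such bulk RNA, fewer cells that express a gene and less RNA per cell cannot be told apart.

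**Figure D1:**
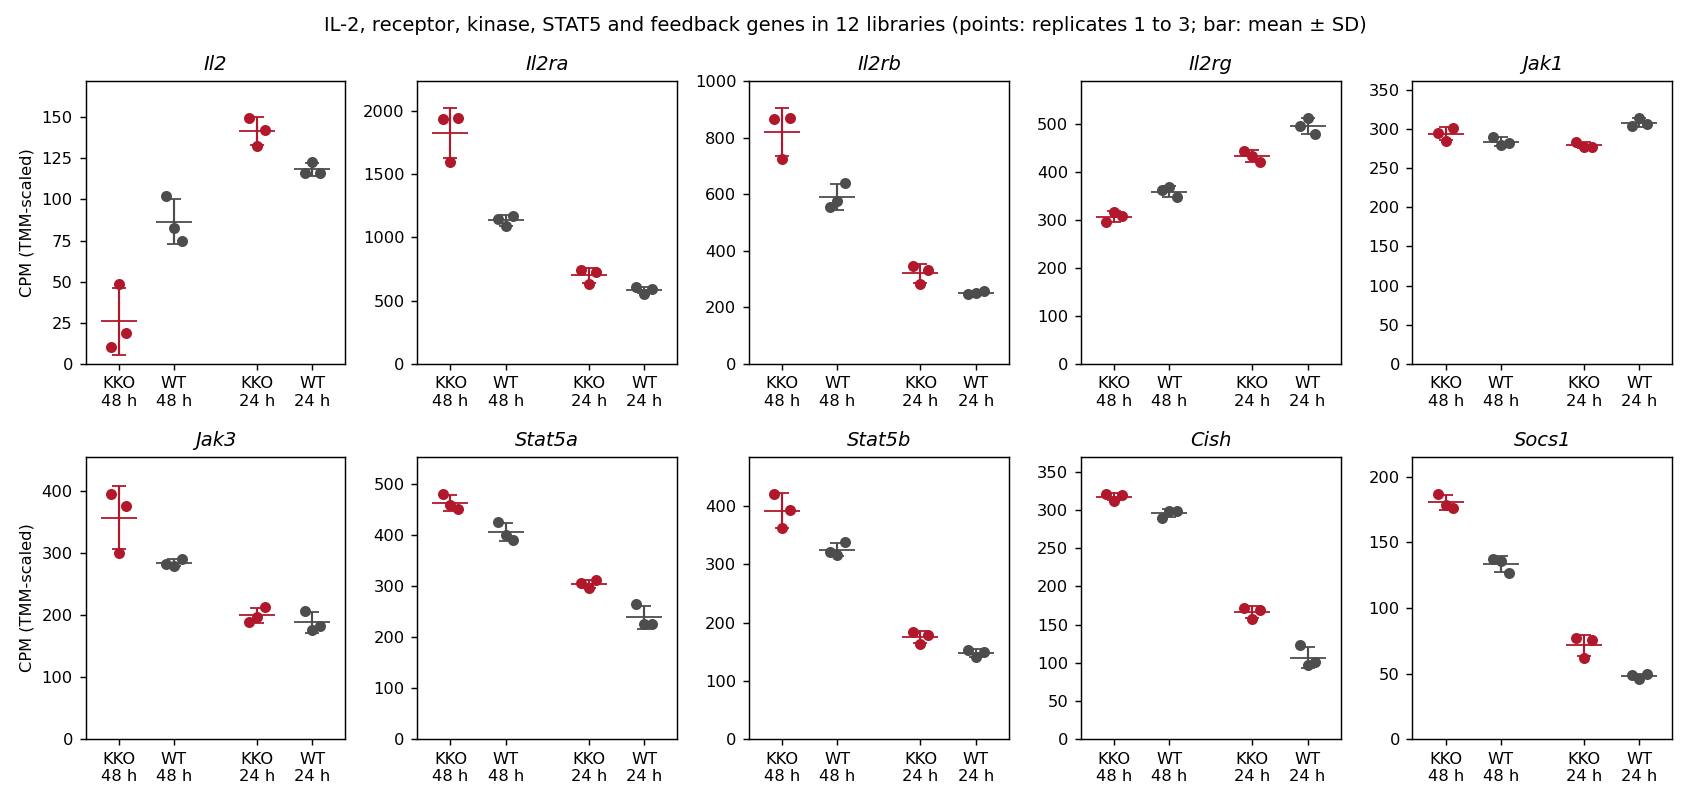
Levels of the 10 genes in CPM (y axis, linear from 0) in the 3 libraries of each group (x axis), with KKO in red and WT in grey, and bars for the mean ± SD. At 48 h the 3 KKO libraries lie below the WT libraries for Il2, while for Il2ra they lie between 1599.6 and 1948 CPM, against 1089 to 1174 CPM in WT.

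Il2 encodes the cytokine itself and lies on chromosome 3 at 37120523 to 37125959 on the minus strand (mouse build mm10, which is GRCm38). Its transcription after T-cell stimulation is known to depend on NFAT. The 250 bases before its RefSeq start (RefSeq, build GRCm38.p6, chr3:37125955-37126204, minus strand, 5′ to 3′) are shown because Il2 is the member with the widest change. Capitals mark the NFAT core GGAAA, read on both strands, and both matches lie in this stretch.
Il2: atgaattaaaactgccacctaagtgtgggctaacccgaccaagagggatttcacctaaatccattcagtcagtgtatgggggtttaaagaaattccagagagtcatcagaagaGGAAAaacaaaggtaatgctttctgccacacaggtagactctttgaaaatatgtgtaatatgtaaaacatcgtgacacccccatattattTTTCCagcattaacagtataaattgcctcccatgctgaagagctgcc
The matches begin 137 and 47 bases before the start. Such a core stood in 61.3% of all 32851 RefSeq windows of 300 bases (250 before to 50 after a start), so it is a description of the sequence and not a site. The AP-1 letters TGANTCA and the antioxidant response element core TGACNNNGC, the letters of Nrf2 binding, were in none of the 11 windows that RefSeq gives for 9 of the members, both strands read. They stood in 7.81% and 12.4% of all windows.

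At 48 h Il2 had 10.03, 48.7 and 18.7 CPM in KKO libraries, against 101.9, 82.8 and 74.8 CPM in WT libraries. The 3 KKO libraries were all lower than the lowest WT library, and they were wider apart than the WT libraries. The means were 25.8 ± 20.3 CPM in KKO and 86.5 ± 13.9 CPM in WT (SD, n = 3), 3.39-fold lower in KKO, with a log2 fold change of -1.76 ± 0.44 (SE; edgeR adjusted p = 0.0227). The call was lost on leaving out KKO replicate 3 (adjusted p = 0.0907), WT replicate 1 (0.0762) or WT replicate 2 (0.0599) of 48 h. It was also lost without the 2 libraries of mixed sex-linked transcripts (-1.58, adjusted p = 0.122) and in a fit of the 6 libraries of 48 h alone (adjusted p = 0.107). Without KKO replicate 2 at 48 h the log2 fold change was -2.60 (adjusted p = 5.61e-05). Among libraries with Xist only, Il2 had 48.7 CPM in 1 KKO library against a mean of 92.4 CPM in 2 WT libraries. Among libraries with Y-linked transcripts only, it had 10.03 CPM in 1 KKO library against 74.8 CPM in 1 WT library.

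At 24 h Il2 had 149.6, 132.6 and 142 CPM in KKO libraries, against 116, 123 and 116 CPM in WT libraries. All 3 KKO libraries were above all 3 WT libraries, by a narrow margin. The log2 fold change of 0.26 ± 0.40 (SE) did not pass the test (adjusted p = 0.947), in which the error is estimated from all 12 libraries, KKO at 48 h included. With only the 6 libraries of 24 h in the fit, the same change of 0.26 had an adjusted p of 0.00801. Across time, Il2 in KKO was 5.55-fold lower at 48 h than at 24 h (log2 fold change -2.47 ± 0.44 SE, edgeR adjusted p = 0.000966). Without KKO replicate 2 at 48 h that log2 fold change was -3.31 (adjusted p = 1.75e-06). In WT the log2 fold change was -0.45 ± 0.40 (SE, adjusted p = 0.364), with all 3 libraries of 48 h below all 3 of 24 h. It was -0.45 with an adjusted p of 0.00364 in a fit of the 6 WT libraries alone, and -0.45 with an adjusted p of 0.0401 without KKO replicate 2 at 48 h. The difference between the genotype effects at 48 h and at 24 h was -2.02 ± 0.59 (SE) and missed the threshold (adjusted p = 0.0949). It passed in DESeq2 (adjusted p = 0.0387), in limma-voom (adjusted p = 0.0103) and without KKO replicate 2 at 48 h, at -2.86 (edgeR adjusted p = 0.000315).

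Il2ra encodes the alpha chain CD25, which gives the receptor its high affinity, and lies on chromosome 2 at 11642807 to 11693193. At 48 h it had 1941, 1599.6 and 1948 CPM in KKO libraries, against 1144, 1089 and 1174 CPM in WT libraries. The groups stood well apart. The means were 1829 ± 199 CPM in KKO and 1135 ± 42.9 CPM in WT (SD, n = 3), 1.61-fold higher in KKO, with a log2 fold change of 0.69 ± 0.08 (SE, edgeR adjusted p = 6.81e-05). That call held in all 23 alternatives. At 24 h Il2ra had 742, 631 and 729 CPM in KKO libraries, against 605, 555 and 589.8 CPM in WT libraries. All KKO libraries were higher, but the log2 fold change of 0.26 ± 0.08 (SE) was not called (adjusted p = 0.129). It was called without KKO replicate 2 at 24 h (0.33, adjusted p = 0.0459) and without KKO replicate 2 at 48 h (0.27, adjusted p = 0.0114). It was also called in DESeq2 (0.27, adjusted p = 0.0323) and in a fit of the 6 libraries of 24 h alone (0.27, adjusted p = 0.032). The difference between the genotype effects was 0.42 ± 0.11 (SE) and just missed the threshold (adjusted p = 0.0507). It was called in 9 of 22 alternatives, among them those without KKO replicate 2 at 48 h (0.50, adjusted p = 0.000763) and without WT replicate 3 at 48 h (0.44, adjusted p = 0.0413).

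Il2rb encodes the beta chain, which carries the sites that recruit STAT5, and lies on chromosome 15 at 78479256 to 78495271. At 48 h it had 867, 724 and 870.4 CPM in KKO libraries, against 554, 577 and 640.0 CPM in WT libraries. No KKO library reached down to a WT library. The log2 fold change was 0.47 ± 0.09 (SE, edgeR adjusted p = 0.00182), called in all 23 alternatives. At 24 h Il2rb had 347, 283 and 333 CPM in KKO libraries, against 245, 250.5 and 256 CPM in WT libraries. The groups again did not overlap, and the log2 fold change of 0.36 ± 0.09 (SE) passed narrowly (adjusted p = 0.0464). That call was lost without any single library of 24 h but KKO replicate 2: the adjusted p was 0.150 and 0.205 without KKO replicates 1 and 3, and 0.0976, 0.129 and 0.101 without WT replicates 1, 2 and 3. It was also lost without KKO replicate 3 (0.0576) or WT replicate 2 (0.0510) of 48 h, and without the 2 libraries of mixed sex-linked transcripts (0.255). In limma-voom it was lost as well (0.35, adjusted p = 0.0547).

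Il2rg encodes the common gamma chain and lies on the X chromosome at 101264378 to 101268255. It ran the other way from the alpha and beta chains. At 48 h it had 295, 318 and 308 CPM in KKO libraries, against 362, 370.0 and 347 CPM in WT libraries. The groups did not overlap, and the log2 fold change was -0.23 ± 0.05 (SE, edgeR adjusted p = 0.00872; adjusted p = 0.0548 without KKO replicate 1 at 48 h). At 24 h it had 445, 434 and 421 CPM in KKO libraries, against 497, 514 and 480.2 CPM in WT libraries. Those groups did not overlap either, but the log2 fold change of -0.20 ± 0.05 (SE) was not called (adjusted p = 0.0837). It was called in DESeq2 (-0.19, adjusted p = 0.00585), in a fit of the 6 libraries of 24 h alone (-0.19, adjusted p = 0.025) and without KKO replicate 2 at 48 h (-0.19, adjusted p = 0.0243). Within Xist-only libraries the log2 ratio of KKO to WT was -0.20 at 48 h and -0.22 at 24 h, and within libraries with Y-linked transcripts only it was -0.23 and -0.19. On mm10, 728 exon bases of Il2rg are shared with the predicted gene Gm20489, and whether the counting used strand is not given in the sources used here, so its reads are not certain to be its own.

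Because the 3 subunits assemble on each other, their levels were also set side by side per length, as CPM per kb of annotated exon. At 48 h Il2ra averaged 320.3 ± 34.8 CPM per kb in KKO and 199 ± 7.52 CPM per kb in WT (SD, n = 3). Il2rb averaged 191 ± 19.5 CPM per kb in KKO and 138 ± 10.4 CPM per kb in WT, and Il2rg 129 ± 4.69 CPM per kb in KKO and 151 ± 4.82 CPM per kb in WT. In KKO the order was therefore alpha, beta, gamma, with no overlap between subunits, while in WT the beta and gamma chains overlapped (129 to 149 and 146 to 155 CPM per kb). Taken over the principal transcript of each gene, the beta and gamma chains overlapped in KKO (173 to 208 and 177 to 190.3 CPM per kb) and not in WT (132 to 153 and 208 to 222 CPM per kb), so their order depends on the length used. At 24 h Il2rg led in both genotypes, at 182 CPM per kb in KKO and 208 CPM per kb in WT. Il2ra followed at 123 CPM per kb in KKO and 102 CPM per kb in WT, and Il2rb was lowest at 74.9 CPM per kb in KKO and 58.5 CPM per kb in WT.

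**Figure D2:**
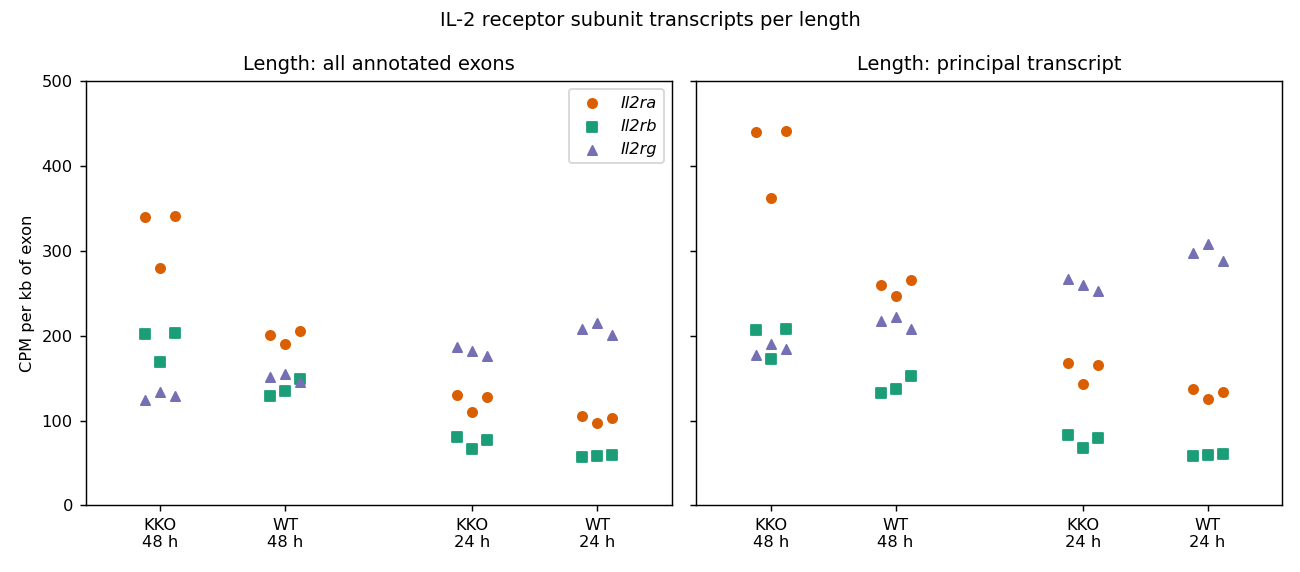
Receptor subunit levels in CPM per kb of exon (y axis, linear from 0) in each library (points) of the 4 groups (x axis), over all annotated exons on the left and over the principal transcript on the right. Il2ra is highest in both genotypes at 48 h and Il2rg at 24 h, and the order of Il2rb and Il2rg in KKO at 48 h differs between the panels.

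JAK1 binds the beta chain and JAK3 the gamma chain. Jak3, on chromosome 8 at 71676296 to 71690575, had 396, 299.7 and 375 CPM in KKO libraries at 48 h, against 283, 279 and 291 CPM in WT libraries. KKO replicate 2 lay close to the WT libraries and the other two KKO libraries well above them. The log2 fold change was 0.33 ± 0.09 (SE, edgeR adjusted p = 0.0195). The adjusted p was 0.0978 and 0.0830 without KKO replicates 1 and 3, 0.0664 and 0.0755 without WT replicates 1 and 2, all at 48 h, and 0.102 without the libraries of mixed sex-linked transcripts. At 24 h Jak3 had 189.5 to 213 CPM in KKO libraries and 176 to 207 CPM in WT libraries, which overlapped, and it was not called (log2 fold change 0.08, adjusted p = 0.897). Jak3 shares 404 exon bases with Insl3, so its reads carry the same doubt as those of Il2rg. Jak1, on chromosome 4 at 101152367 to 101265282, had the smallest differences of the 10 genes at 48 h, with 285 to 302 CPM in KKO libraries and 279.7 to 289.9 CPM in WT libraries (log2 fold change 0.05, 95% interval -0.06 to 0.16, adjusted p = 0.501). At 24 h it had 277 to 284 CPM in KKO libraries and 303 to 314 CPM in WT libraries, which did not overlap, and the log2 fold change of -0.14 was not called (adjusted p = 0.224; DESeq2 adjusted p = 0.00781).

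STAT5 is encoded by the neighbouring genes Stat5a and Stat5b on chromosome 11, at 100859351 to 100885169 on the plus strand and at 100780731 to 100850724 on the minus strand. Both proteins act downstream of the receptor and bind the same DNA. On mm10, 72 exon bases of Stat5a are shared with the gene Stat3, and how many reads lay there was not tested. Stat5a had 306, 297 and 312 CPM in KKO libraries at 24 h, against 265, 225 and 226 CPM in WT libraries. The groups did not overlap, and the log2 fold change of 0.35 ± 0.07 (SE) was called (edgeR adjusted p = 0.0106). Its adjusted p was 0.0708 without KKO replicate 3, 0.0928 and 0.0827 without WT replicates 2 and 3, all at 24 h, and 0.0733 without the libraries of mixed sex-linked transcripts. At 48 h Stat5a had 482, 459 and 451 CPM in KKO libraries, against 426, 401 and 391 CPM in WT libraries. The log2 fold change was 0.19 ± 0.07 (SE) with an adjusted p of 0.0486. That call stood at the threshold: it held in 8 of 23 alternatives. It was lost without the 2 libraries of mixed sex-linked transcripts (0.21, adjusted p = 0.110). With 1 library left out it held only without KKO replicate 2 at 48 h or WT replicate 1 at 24 h, and over the 12 such fits the adjusted p ran between 0.0249 and 0.169.

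Stat5b had 421, 361 and 393 CPM in KKO libraries at 48 h, against 321, 316 and 337 CPM in WT libraries. The groups did not overlap, and the log2 fold change was 0.27 ± 0.07 (SE, edgeR adjusted p = 0.0102; adjusted p = 0.0572 without KKO replicate 1 at 48 h). At 24 h it had 184, 164 and 179 CPM in KKO libraries, against 153, 141 and 149.8 CPM in WT libraries, again without overlap. The log2 fold change of 0.25 ± 0.07 (SE) was not called (adjusted p = 0.0741), but was called without KKO replicate 2 at 24 h (0.29, adjusted p = 0.0498) or KKO replicate 2 at 48 h (0.25, adjusted p = 0.0126). It was also called in DESeq2 (0.25, adjusted p = 0.00689) and in a fit of the 6 libraries of 24 h alone (0.25, adjusted p = 0.0167). The genes share sequence: 2.85% of the 100-base windows of the longest Stat5a transcript occur in a Stat5b transcript and 5.18% the other way, so reads that lie wholly in such a window could belong to either, and how many did was not tested. A division of reads between the genes does not change their sum. It was 856 ± 42.3 CPM in KKO and 731 ± 15.2 CPM in WT at 48 h, and 481 ± 17.1 CPM in KKO and 387 ± 27.4 CPM in WT at 24 h (SD, n = 3). Stat5a gave 54.3% of the sum in KKO and 55.5% in WT at 48 h, and 63.5% in KKO and 61.7% in WT at 24 h, and these shares overlapped between genotypes at both times.

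Cish encodes a cytokine-inducible SH2 protein that damps IL-2 receptor signalling, and is a classic STAT5 target. It lies on chromosome 9 at 107296026 to 107302784. Its promoter is shown because it was the only window of the 11 to hold the STAT5 letters TTCNNNGAA, read on both strands. The stretch runs over 250 bases before and 20 bases from the RefSeq start (RefSeq, build GRCm38.p6, chr9:107296409-107296678, plus strand, 5′ to 3′), and capitals mark both matches.
Cish: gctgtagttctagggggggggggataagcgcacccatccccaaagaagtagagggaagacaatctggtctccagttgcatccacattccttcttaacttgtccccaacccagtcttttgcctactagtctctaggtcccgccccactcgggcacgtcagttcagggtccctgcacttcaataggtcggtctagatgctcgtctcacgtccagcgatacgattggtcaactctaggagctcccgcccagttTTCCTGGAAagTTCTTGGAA
Of all 32851 RefSeq windows, 8.30% held at least 1 such match and 0.457% held 2 or more. The letters overlap those of the NFAT core GGAAA, of which the Cish window held 4 matches. A match is a description of the sequence, and no match in the other windows says only that these letters are not there.

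At 24 h Cish had 172, 157 and 169 CPM in KKO libraries, against 123, 97.1 and 100.5 CPM in WT libraries. The KKO libraries stood clear of all WT libraries. The means were 166 ± 7.99 CPM in KKO and 107 ± 14.2 CPM in WT (SD, n = 3), 1.55-fold higher in KKO, with a log2 fold change of 0.63 ± 0.08 (SE, edgeR adjusted p = 0.00036). That call held in all 23 alternatives. At 48 h Cish had 321, 312 and 319 CPM in KKO libraries, against 289.8, 299 and 298 CPM in WT libraries. These still did not overlap but lay close, and the log2 fold change of 0.10 ± 0.08 (SE) was not called (adjusted p = 0.344, 95% interval -0.06 to 0.27). Cish was the only member whose genotype effect differed between the times by the test of that difference, at -0.53 ± 0.11 (SE, edgeR adjusted p = 0.0169). Of the 10 members 0 were called higher and 1 lower in that test, where 4.18% of all genes were called (1.46% higher, 2.72% lower). Without KKO replicate 2 at 48 h 5 members were called, among them Jak3 (0.34, adjusted p = 0.0191) and Jak1 (0.19, adjusted p = 0.031), and without WT replicate 3 at 48 h 2 were. Over all genes, those fits called 3217 of 13525 and 828 of 13508, against 552 of 13196 with all libraries. For Cish the adjusted p was 0.055 without WT replicate 3 of 24 h, 0.0558 without WT replicate 2 of 48 h and 0.115 without the libraries of mixed sex-linked transcripts. On mm10, Cish shares 261 and 479 exon bases with the predicted genes Gm17040 and Gm17041. Overlap was counted on either strand, so reads in those bases are not certain to be its own.

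Socs1 encodes the suppressor of cytokine signalling that binds JAK kinases, and lies on chromosome 16 at 10782240 to 10785536. At 48 h it had 187, 178 and 176 CPM in KKO libraries, against 138, 136 and 126 CPM in WT libraries. At 24 h it had 77.1, 62.1 and 75.5 CPM in KKO libraries, against 49.1, 46.2 and 49.7 CPM in WT libraries. The groups did not overlap at either time. The log2 fold change was 0.44 ± 0.07 (SE, edgeR adjusted p = 0.000871) at 48 h and 0.57 ± 0.07 (SE, adjusted p = 0.000605) at 24 h. Socs1 was called in all 23 alternatives at both times, the one member of which that is true. The difference between its effects at the 2 times was -0.13 ± 0.10 (SE) and was not called (adjusted p = 0.475).

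**Figure D3:**
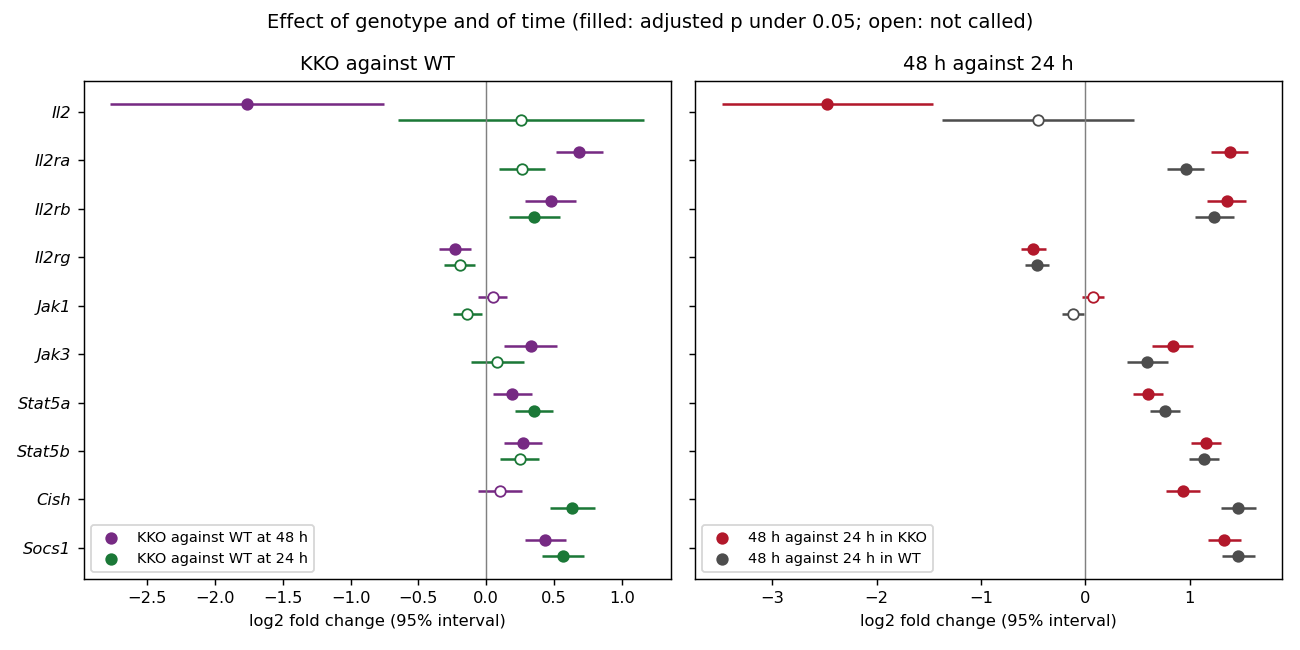
Log2 fold changes (x axis) of the 10 genes with 95% intervals, for KKO against WT on the left and for 48 h against 24 h on the right; filled points have an adjusted p under 0.05. Il2 lies at -1.76 in KKO against WT at 48 h while the receptor, STAT5 and Socs1 effects lie between -0.23 and 0.69.

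The comparison of 48 h with 24 h asks how the loop moves as activation goes on. At 48 h against 24 h, 9 of the 10 members were called in KKO (7 higher, 2 lower), where 67.8% of all genes were called (34.4% higher, 33.4% lower), and 8 in WT (7 higher, 1 lower), where 60.8% were (31.0% higher, 29.7% lower). With backgrounds that high, the counts say little of these genes. The median log2 fold change over the members was 0.89 in KKO and 0.86 in WT, beside 0.0021 and -0.0006 over all genes. Groups did not overlap for all 10 members in either genotype, where 70.4% of all genes in KKO and 68.4% in WT did not overlap. Socs1 (2.52-fold in KKO, 2.76-fold in WT), Il2rb (2.56-fold and 2.36-fold), Stat5b (2.23-fold and 2.20-fold) and Il2ra (2.61-fold and 1.95-fold) were each higher at 48 h in both genotypes. Cish was 1.91-fold higher at 48 h in KKO and 2.76-fold higher in WT. Jak3 was 1.79-fold higher in KKO and 1.51-fold in WT, and Stat5a 1.52-fold and 1.70-fold. Il2rg was 1.41-fold lower at 48 h in KKO and 1.38-fold lower in WT, while Jak1 was not called in either (log2 fold change 0.07, adjusted p = 0.208 in KKO, and -0.12, adjusted p = 0.0553 in WT, but 0.0249 without KKO replicate 2 at 48 h). These comparisons share samples with those of genotype.

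Among the 3 KKO libraries of 48 h, replicate 2 had the highest Il2, at 48.7 CPM, and the lowest Il2ra, Il2rb, Jak3, Stat5b and Cish of the 3. Replicate 1 had the lowest Il2, at 10.03 CPM, and the highest Jak3, Stat5a, Stat5b, Cish and Socs1. Over all 12 libraries Il2 had a Pearson r of -0.87 with Il2ra and 0.82 with Il2rg, and Il2ra had 0.99 with Il2rb, on log2 CPM. These libraries share genotype, time and depth, so the values are descriptions without a test. Genes whose pattern over the 12 libraries was most like that of Il2 were Itgb1 (r = 0.99), Galnt7 (0.98), Ppp2r5d (0.98), Tor1aip1 (0.98) and Dennd2d (0.98), with members and predicted genes left out. Nearest to Il2ra were Epb41 (0.9965), Auh (0.9961), Casp6 (0.9958), Gsn (0.9948) and Kif3a (0.9945), and nearest to Cish were Myo1g, Gzmb, Runx2, Tbkbp1 and Fam71b (0.99 each).

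The remaining genes of the pathway came from 8 lists, and a few genes stand in more than 1 of them (Il4ra, Il7r, Prdm1 and Foxp3). Among genes known to be induced by IL-2 through STAT5, those called with all 12 libraries were all higher in KKO. Of 18 tested, 10 rose and 0 fell at 48 h, and 8 rose and 0 fell at 24 h, with 8 and 10 not called. Over all genes, 12.4% rose and 11.9% fell at 48 h, and 1.89% rose and 0.432% fell at 24 h, which is the background for the counts of each list with all 12 libraries. For counts without the mixed libraries it is 1386 of 13391 genes called at 48 h and 107 at 24 h. For counts without KKO replicate 2 of 48 h it is 5362 of 13525 at 48 h and 505 at 24 h. The median log2 fold change of the 18 was 0.34 at 48 h and 0.47 at 24 h, beside -0.0042 and -0.0040 over all genes. Il24, a cytokine of the IL-10 family, stood at 83.6 ± 20.1 CPM in KKO and 11.1 ± 1.86 CPM in WT at 48 h (SD, n = 3; log2 fold change 2.92, edgeR adjusted p = 8.82e-06), and at 0.952 CPM in KKO and 0.114 CPM in WT at 24 h (3.0, adjusted p = 0.0275). Nfil3, a transcription factor gene, rose at both times (1.05 at 48 h, 1.23 at 24 h), and so did the interleukin 4 receptor gene Il4ra (0.51 and 0.43). Bcl2, which protects from cell death, rose at 48 h (0.59). The granzyme gene Gzmb (0.48 at 48 h, 1.44 at 24 h) and the interleukin 12 receptor gene Il12rb2 (0.49 and 0.80) rose at both times. Without the libraries of mixed sex-linked transcripts 5 rose at 48 h and 4 at 24 h. Without KKO replicate 2 of 48 h 10 rose and 1 fell at 48 h, and 9 rose and 0 fell at 24 h.

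Genes known to be lowered by IL-2 through STAT5 moved both ways. Of 6 tested, 3 rose and 2 fell at 48 h, and 2 rose and 1 fell at 24 h (median log2 fold change 0.28 and -0.04, beside -0.0042 and -0.0040 over all genes). The follicular homing receptor gene Cxcr5 (1.43 at 48 h, 0.91 at 24 h) and Il7r, the interleukin 7 receptor (1.29 and 0.80), rose at both times, and the interleukin 6 receptor gene Il6ra rose at 48 h (0.73). Bcl6, the repressor that defines follicular helper cells, fell at 48 h (-0.76), and the signalling chain gene Il6st fell at both times (-0.20 and -0.45). B cells also express Cxcr5, and the B cell sums given above were higher in KKO at both times. What part they had was not tested. Without the libraries of mixed sex-linked transcripts the counts were 3 higher and 2 lower at 48 h and 0 higher and 1 lower at 24 h.

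Receptors and cytokines of the common gamma chain family had 7 of 10 genes tested, and Il7, Il15 and Il9r did not pass the filter. At 48 h 4 rose and 1 fell, and at 24 h 4 rose and 0 fell (median log2 fold change 0.69 and 0.80, beside -0.0042 and -0.0040 over all genes). The follicular helper cytokine Il21 stood at 34.3 ± 11.2 CPM in KKO and 6.66 ± 3.35 CPM in WT at 48 h (SD, n = 3; log2 fold change 2.37, edgeR adjusted p = 0.0229). Il7r stood at 53.7 ± 12.8 CPM in KKO and 21.9 ± 2.41 CPM in WT at 48 h, and Il15ra at 17.2 ± 3.85 CPM in KKO and 33.6 ± 1.02 CPM in WT (SD, n = 3), the one that fell (-0.97, adjusted p = 7.98e-05). At 24 h the called genes were Il7r (0.80), Il4ra (0.43), Il21r (0.31) and Il9 (2.39), of which Il9 averaged 1.69 CPM in KKO and 0.317 CPM in WT and was named after its values were seen. Without the libraries of mixed sex-linked transcripts 2 rose and 1 fell at 48 h, and 1 rose at 24 h.

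The Il2 gene's own regulators were split. Of 12 activators, 3 rose and 5 fell at 48 h (median log2 fold change -0.15). Rel, the NF-kappaB subunit c-Rel, stood at 40.8 ± 7.39 CPM in KKO and 73.5 ± 5.93 CPM in WT at 48 h (SD, n = 3; log2 fold change -0.85, edgeR adjusted p = 0.000556). The immediate early genes Fos (-0.54) and Egr1 (-0.52) fell as well, while Ets1 rose (0.53). At 24 h edgeR, DESeq2 and limma-voom each called 0 of the 12, and 3 had an unadjusted p under 0.05 (median -0.0074); the smallest p was that of Jun (0.29, adjusted p = 0.126). Of 8 repressors, 3 rose and 1 fell at 48 h and 2 rose at 24 h (median 0.31 and 0.13). Ikzf3, which encodes Aiolos, rose at both times (0.79 and 0.53), Crem, whose protein binds the Il2 promoter in T cells, rose at 48 h (0.72), and Egr3 fell at 48 h (-0.91). Prdm1, which encodes Blimp-1, was the other called gene at both times, at 3.94 CPM in KKO and 1.37 CPM in WT at 48 h and 1.04 CPM in KKO and 0.269 CPM in WT at 24 h, and was named after its values were seen. Without the libraries of mixed sex-linked transcripts the activators had 2 higher and 3 lower at 48 h, and the repressors had 3 higher and 1 lower at 48 h and 0 called at 24 h. Without KKO replicate 2 of 48 h the repressors had 5 higher and 2 lower at 48 h, and 2 higher and 1 lower at 24 h. That fit called 5362 of 13525 genes at 48 h and 505 at 24 h.

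**Figure D4:**
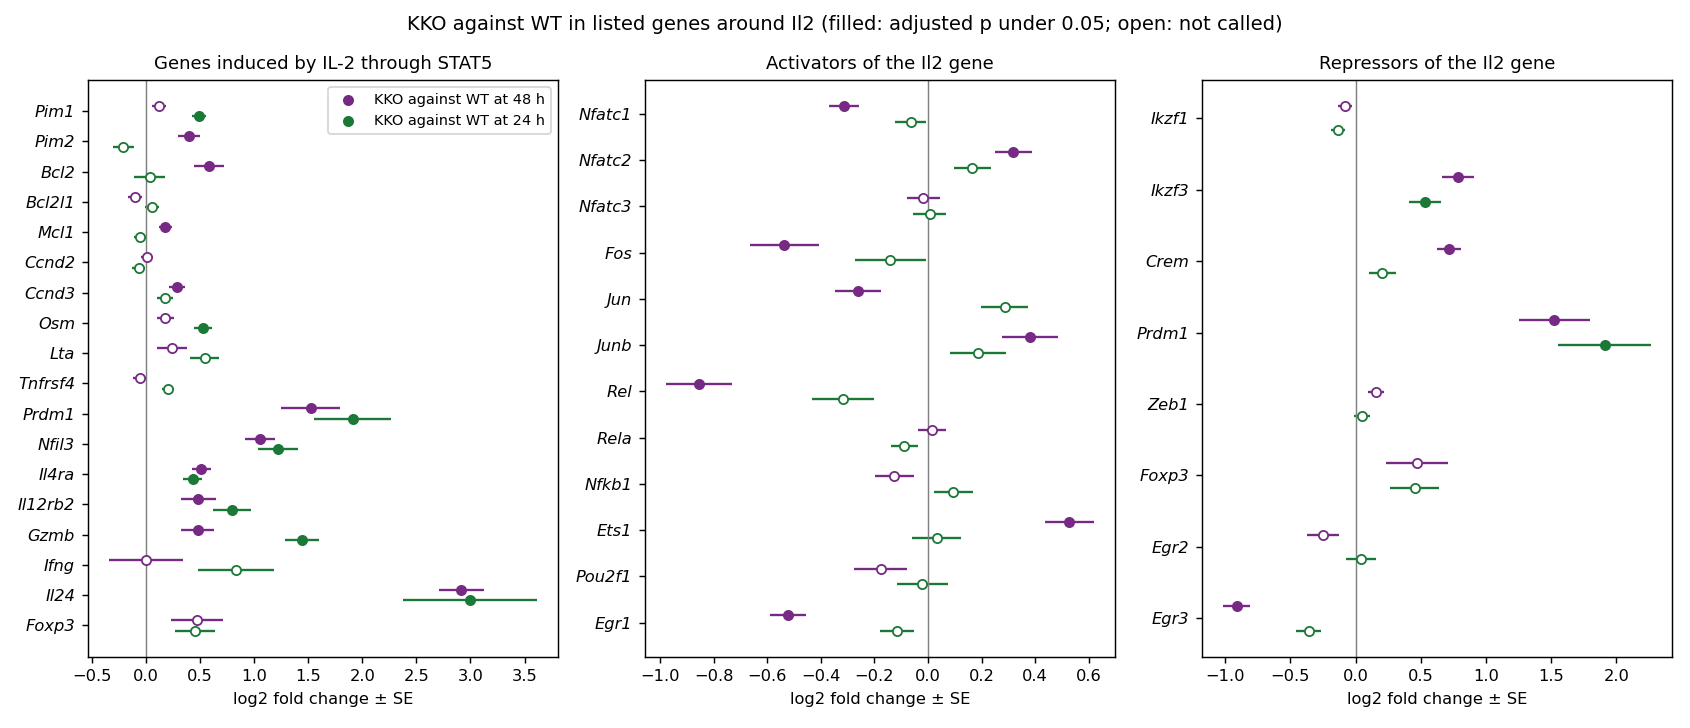
Log2 fold change ± SE (x axis) of KKO against WT at 48 h and 24 h for 18 genes induced by IL-2 through STAT5, 12 activators of Il2 and 8 repressors of Il2; filled points have an adjusted p under 0.05. Filled points of the induced genes all lie above 0, and those of the activators, all of 48 h, lie on both sides.

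Of 7 other JAK and STAT genes, 2 rose and 3 fell at 48 h (median log2 fold change 0.03). Stat4, which transmits interleukin 12, fell by 0.71 on the log2 scale and Stat2, which transmits interferon signals, by 0.50, while Stat3 rose (0.28). At 24 h edgeR, DESeq2 and limma-voom each called 0 of the 7, and 1 had an unadjusted p under 0.05. Of 15 other brakes on cytokine receptors, 2 rose and 3 fell at 48 h (median -0.09), where 24.3% of all genes were called. Socs3, the suppressor that binds interleukin 6 family receptors, stood at 251 ± 68.7 CPM in KKO and 89.0 ± 16.4 CPM in WT at 48 h (SD, n = 3; log2 fold change 1.50, edgeR adjusted p = 0.00427). The phosphatase gene Ptpn2, which acts on JAK1, JAK3 and STAT5, rose (0.41), and the ubiquitin ligase gene Cblb (-0.27) and the phosphatase gene Ptpn11 (-0.25) fell. At 24 h edgeR and limma-voom called 0 of the 15 and DESeq2 1, with 5 at an unadjusted p under 0.05; Socs3 had the smallest p (1.14, adjusted p = 0.110). Of 15 genes of the PI3K and MAPK branch, 4 rose and 0 fell at 48 h (median 0.01), a share near the 24.3% of all genes called. They were the adaptor genes Gab2 (0.75) and Grb2 (0.26), the kinase subunit gene Pik3cd (0.42) and the kinase gene Mapk3 (0.37). At 24 h all 3 tools called 0 of these 15, 4 had an unadjusted p under 0.05, and the smallest p was that of Pik3r1 (0.14, adjusted p = 0.244). Without the libraries of mixed sex-linked transcripts, 0 rose and 3 fell of the JAK and STAT genes at 48 h, 2 rose and 1 fell of the brakes, and 2 rose of the PI3K and MAPK genes. Without KKO replicate 2 of 48 h 4 of the PI3K and MAPK genes rose and 2 fell at that time. That fit called 5362 of 13525 genes at 48 h.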

How the data were processed

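FastQC and RSEM were the tools and mm10 the build, per the submitters' processing notes. A human reference appears in the series text instead, although the symbols in the table are mouse ones. The sources used here do not name an aligner, an annotation or a strand setting. The authors deposited RSEM expected counts per gene, without normalisation. Such a count can divide 1 read over several genes, and 10.8 to 12.7% of values per library were not whole. They were rounded here. The table had 27 symbols turned into dates and 1 row naming no gene, which was left out. Another 6 columns, which no sample label describes, were not used.

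Counts were tested with edgeR 4.0.16 in R 4.3.3: filterByExpr on the 4 groups (13196 genes kept), TMM scaling, robust quasi-likelihood F tests (2-sided), a single fit of all 12 libraries by group (residual degrees of freedom 8), and Benjamini-Hochberg adjustment over all tested genes. The 5 comparisons were KKO against WT at each time, the difference of those effects, and 48 h against 24 h in each genotype. The fit was checked on simulated data. Alternatives used DESeq2 1.42.0, limma-voom (limma 3.58.1), other scalings, filters and thresholds, a replicate block, a male-share covariate and left-out libraries; levels within a sex reading and over the principal transcript were added after the data were seen. Lengths, positions and exon overlaps came from GENCODE M21 (GRCm38), since RefSeq exons of that build were not used here, and promoters from RefSeq GRCm38.p6. Totals were 17.8 to 32.6 M per library, and the lowest count of a member was 204, for Il2 in KKO at 48 h.

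Members, lists and tests were chosen with earlier results of these data known. Beside the 10 members, the text names up to 4 called genes of each list and genotype comparison with the largest change and a mean of at least 2 CPM, or the gene with the smallest p; cell-type lists are given as counts and sums. The values of 1 gene that this rule names are not reported here. For Il2, Il2ra and Cish the 5 genes with the highest Pearson r of log2 CPM (prior count 2) are named. Deviations from the group mean in same-numbered WT libraries of 48 h and 24 h had correlations of 0.126, 0.103 and 0.343. All exceed 0.1, the rule set for pairing. Replicate 2 of 48 h had a higher value, 0.151, with replicate 1 of 24 h than with its own number. Replicate 3 was the WT library with Y-linked transcripts only at both times. The main fit had no replicate block, so its p-values for WT over time are unpaired. In KKO the same-numbered correlations were 0.0287, 0.0852 and 0.0408, and between genotypes they went as low as -0.317, so the rule gave no pairing there.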

Additional observations from a re-analysis of the deposited data

Results flagged for a closer look

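Cish drew attention because its genotype effect differed between the times by the test of that difference: the log2 fold change of KKO over WT was 0.10 at 48 h and 0.63 at 24 h, a difference of -0.53 ± 0.11 (SE, edgeR adjusted p = 0.0169, -0.66 to -0.47 over the 12 fits that left out 1 library). Cish averaged 317 CPM in KKO and 296 CPM in WT at 48 h, and 166 CPM in KKO and 107 CPM in WT at 24 h. It was higher in all 3 KKO libraries than in all 3 WT libraries at both times.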

How the results depend on the processing

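Of 1140 fold changes of members refitted under the alternatives, 1048 kept their direction and their side of the threshold, 50 lost the call, 38 gained it and 4 turned direction. The 4 were all of Stat5b in the difference between genotype effects (0.02 with all libraries), which lay between -0.0291 and 0.0615 when 1 library was left out, with -0.0204, -0.0157 and -0.0034 also below 0. Members called at 48 h (8 of 10) numbered 5 without the libraries of mixed sex-linked transcripts or with only the libraries compared, 4 at an adjusted p under 0.01, and 4 (without KKO replicate 1 of 48 h) to 8 with 1 library left out. At 24 h (4 of 10) they numbered 2 without the mixed libraries or under 0.01 and 3 with limma-voom. They numbered 8 with DESeq2 or only the libraries compared, and 2 to 7 (without KKO replicate 2 of 48 h) with 1 left out. For the difference between the times (1 of 10) they numbered 0 without the mixed libraries or under 0.01, 4 with DESeq2, 2 with limma-voom, the male-share covariate, RLE or upper-quartile scaling, no filter, the stricter filter of 1 CPM in 6 libraries or the replicate block, and 0 to 5 (without KKO replicate 2 of 48 h) with 1 left out. Calls over all genes moved as well. With all libraries they numbered 3209 of 13196 at 48 h, 307 at 24 h and 552 for the difference. Without the mixed libraries they numbered 1386 of 13391, 107 and 54. Without KKO replicate 2 of 48 h they numbered 5362 of 13525, 505 and 3217. DESeq2 called 3342, 483 and 1128 of 13196. Fits of only the libraries compared called 1536 of 12702 at 48 h and 524 of 12627 at 24 h. The cause of these changes was not tested. The replicate block called Il2ra (0.26, adjusted p = 0.0456) and Stat5b (0.25, adjusted p = 0.0479) at 24 h and Il2ra in the difference (0.42, adjusted p = 0.019), and changed no other call of a member; between genotypes the numbers are only numbers. Il2 had counts of at least 204 in each library, and its interval at 48 h, with the error taken from all 12 libraries, was -2.77 to -0.75.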
